A study of Mus musculus with 22 samples.

Results

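A set of 9 genes that mark bile duct cells and liver progenitors were followed through a mouse hepatoblastoma model in which the driver YAP1 can be switched off. The genes were Sox9, Bicc1, Spp1, Krt7, Krt19, Epcam, Cd24a, Cldn4 and Prom1, chosen by symbol from the RNA table. They are 9 of 36555 genes in that table, and all 9 passed the filter on low values that left 17958 genes for testing. Cholangiocytes, the cells that line the bile ducts, and hepatocytes both descend from fetal hepatoblasts. Sox9, the keratins Krt7 and Krt19, Epcam and osteopontin (Spp1) are classical markers of the duct line in liver and of the progenitor cells that appear around ducts after injury. YAP1, the transcriptional coactivator restrained by the Hippo kinases, is known to favor the duct and progenitor programme over the hepatocyte programme in mouse liver.

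RNA came from whole pieces of liver or tumor in 4 groups. The YAP1on tumors were 4 tumors of 1 mouse on doxycycline. The day 6 tumors were 4 tumors of another mouse, taken 6 days after doxycycline was withdrawn. By strain label both tumor mice carried the transgene Tg(CAG-rtTA3)4288Slowe/J on the background B6N.FVB(Cg), in which the CAG promoter drives rtTA3, a transcriptional activator that needs doxycycline. The 3 hbHep mice, at days 121, 114 and 117, had livers holding hepatocyte-like cells derived from the tumor by the series' title, and each was sequenced as 2 technical libraries that were averaged. FAH liver came from 3 mice kept on NTBC, a drug that blocks tyrosine breakdown upstream of Fah. By the genotype label the hbHep and FAH liver mice share FAH Delta Exon 5, a deletion in the last enzyme of tyrosine breakdown. Titles of the FAH liver samples also hold the word WT, whose meaning beside that genotype the labels do not give. No sample label gives the share of host cells left in the hbHep livers. Treatment is confounded with mouse in the tumor groups, so these cannot be told apart, and neither can strain and group between tumors and the other mice. The 4 groups shared 1 estimate of the spread of each gene. A p-value between tumor groups thus measures the spread between tumors of 1 mouse, pooled with that between hbHep mice and between FAH livers. It does not measure the spread between tumor mice. A p-value of a tumor group against hbHep or FAH liver does not either, as those tumors also came from 1 mouse. ATAC, which cuts accessible DNA with a transposase, was done on 1 library each labeled Yap On, Yap Off D14, D33 and D64, and WT liver, with no genotype given; the series' design calls the first a tumor and the 3 days hbHep.

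Levels are abundances, the deposited scaled reads per base after rescaling between samples, so they can be compared between genes. Tests were made with limma on log2(abundance + 1) over all 17958 genes, where p-values were adjusted by Benjamini-Hochberg, and a change was called below 0.05. Fold changes on that scale are smaller than the true ones for low genes. Yap1 itself was 5309, 9790, 7872 and 10810 in YAP1on tumors 1 to 4. It ranged over 1097 to 1254 at day 6, over 932 to 1310 across hbHep mice and over 1142 to 1353 in FAH liver, so the tumor labels and the level of the driver matched. The summed level of 10 hepatocyte markers was lowest in YAP1on tumors (212600 to 367900). It was 523500 to 668400 at day 6, 417200 to 630700 across hbHep mice and 1087000 to 1343000 in FAH liver. In whole tissue, fewer cells of a type and less RNA per cell cannot be told apart.

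The starts of Spp1, Krt7 and Cldn4 are shown first because ATAC intervals lay there in the Yap On and day 14 libraries and at neither day 33 nor day 64. RefSeq's GRCm38.p6 promoter table held 5 of the 9 genes: Spp1, Krt7, Cldn4, Epcam and Prom1. The 250 bases before each start are printed 5′ to 3′ on the strand of the gene, and capitals mark bases inside an interval of the day 14 library. They are chr5:104434861-104435110 on the plus strand for Spp1, chr15:101412153-101412402 on the plus strand for Krt7 and chr5:134946935-134947184 on the minus strand for Cldn4.
Spp1: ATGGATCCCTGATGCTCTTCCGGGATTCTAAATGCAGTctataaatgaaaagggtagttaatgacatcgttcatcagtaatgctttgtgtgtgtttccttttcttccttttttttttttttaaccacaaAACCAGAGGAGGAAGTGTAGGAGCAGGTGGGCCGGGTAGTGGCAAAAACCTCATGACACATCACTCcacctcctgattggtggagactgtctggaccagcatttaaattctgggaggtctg
Krt7: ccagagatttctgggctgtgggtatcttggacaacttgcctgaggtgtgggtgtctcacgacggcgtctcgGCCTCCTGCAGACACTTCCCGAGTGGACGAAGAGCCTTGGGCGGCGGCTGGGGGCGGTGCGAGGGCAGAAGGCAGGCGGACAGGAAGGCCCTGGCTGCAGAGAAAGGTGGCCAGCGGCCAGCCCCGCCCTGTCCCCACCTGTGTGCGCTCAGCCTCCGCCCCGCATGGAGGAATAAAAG
Cldn4: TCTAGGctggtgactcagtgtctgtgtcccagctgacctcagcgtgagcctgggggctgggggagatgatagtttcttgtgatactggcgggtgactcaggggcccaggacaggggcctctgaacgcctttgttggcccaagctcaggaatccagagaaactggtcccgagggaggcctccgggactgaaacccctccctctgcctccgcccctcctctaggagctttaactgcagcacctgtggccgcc
Of these bases, 104 in Spp1, 179 in Krt7 and 6 in Cldn4 lay inside day 14 intervals. The Krt7 capitals form 1 block that reaches the gene start, in 2 adjoining intervals from -179 to -51 and from -50 to 17 relative to the start. The Spp1 capitals fall in separate stretches, one of them from -121 to -56.

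The 9 genes were higher in tumors with YAP1 on than in FAH liver, and most of them were lower by day 6 without YAP1. In YAP1on tumors against FAH liver, 9 of 9 were higher and 0 lower, against 34.6% and 33.3% of all genes tested. All YAP1on tumors lay above all FAH livers for 9 of 9 genes, against 31.8% of all genes, and the median log2 fold change was 3.66 against 0.05 over all genes. In day 6 tumors against YAP1on tumors, 6 of 9 were lower and 0 higher (background 10.9% lower and 12.8% higher), with a median of -1.35 against 0.02. All day 6 tumors lay below all YAP1on tumors for 6 genes, against 14.1% of all genes. In hbHep against YAP1on tumors, 6 of 9 were lower and 0 higher (background 26.5% and 28.7%), the same number lay wholly below (background 26.5%), and the median was -2.46 against -0.03. In hbHep against FAH liver, 6 of 9 were higher and 0 lower (background 20.0% higher and 17.0% lower), 7 lay wholly above (background 21.6%), and the median was 1.17 against -0.00. Between hbHep and day 6 tumors 5 of 9 were lower in hbHep (background 21.7%), and the same number lay wholly below (background 25.0%). Between day 6 tumors and FAH liver 6 of 9 were higher in the tumors (background 31.8%), and 7 lay wholly above (background 30.6%). With 1 sample left out, 5 to 7 of the 9 changed at day 6, 4 to 6 differed between hbHep and FAH liver, and 4 to 7 between hbHep and day 6 tumors. These comparisons share groups, so their counts are not independent of each other.

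**Figure D1:**
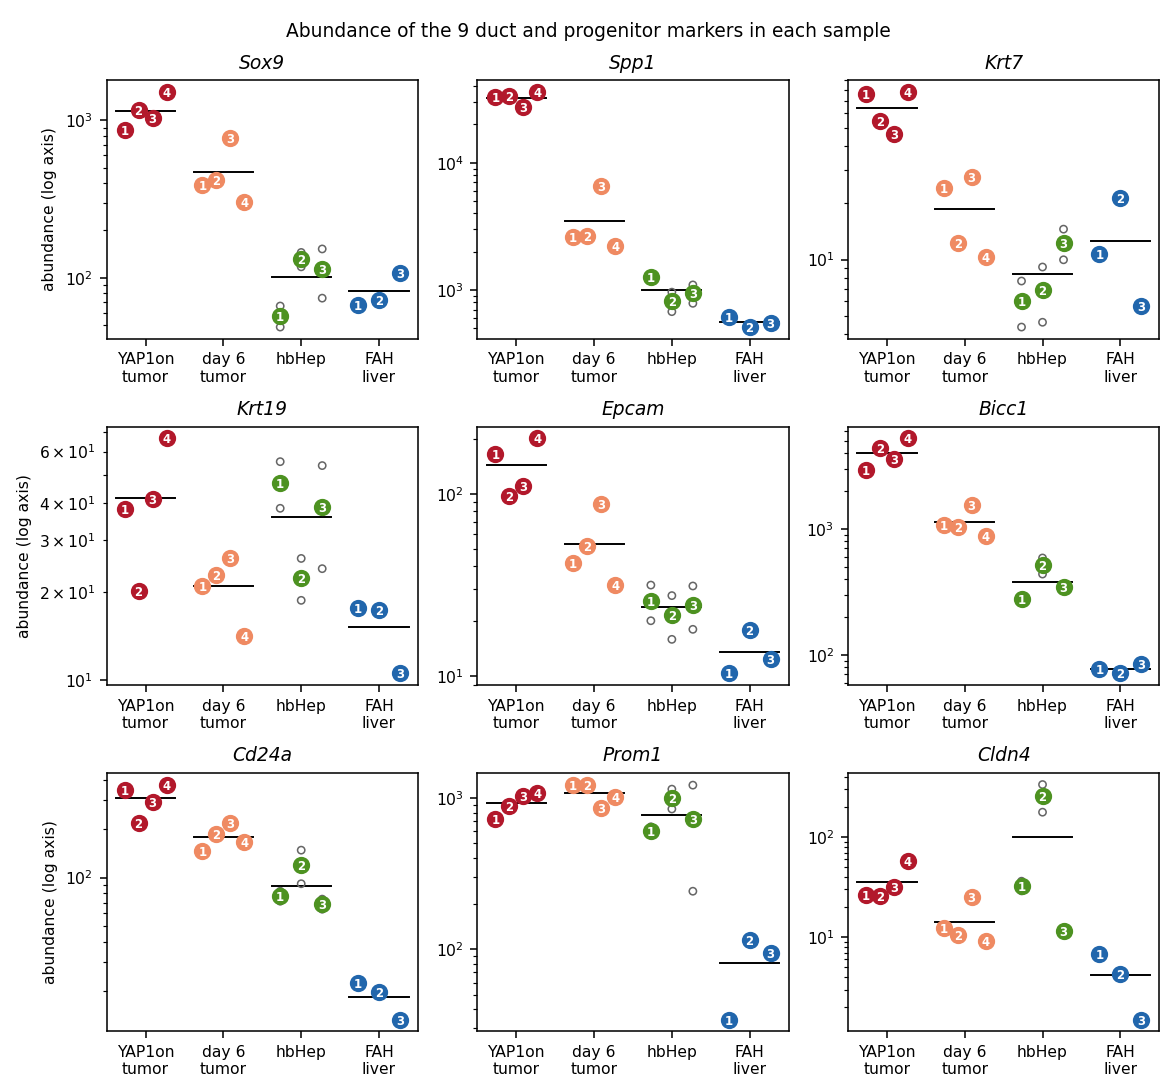
Abundance (log axis) of each gene in each sample, with numbered filled points for tumors or mice, a black line for the group mean and open circles for the 2 technical libraries of each hbHep mouse, hidden where they lie under the filled point. YAP1on tumors stand above FAH liver in all 9 panels; Prom1 stays near 1000 in both tumor groups, and its 2 technical libraries of hbHep mouse 3 are far apart.

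Sox9 (ENSMUSG00000000567, chromosome 11, 112782210 to 112787757) encodes a transcription factor that directs duct formation. It was 869, 1165, 1028 and 1512 in YAP1on tumors 1 to 4 and 388, 415, 771 and 302 in day 6 tumors 1 to 4. It was 57.5, 131 and 113 in hbHep mice 1 to 3, and 67.3, 72.5 and 107 in FAH livers 1 to 3. Every YAP1on tumor lay above every day 6 tumor, every day 6 tumor above every hbHep mouse, and hbHep and FAH liver overlapped. The log2 fold change was -1.35 from YAP1on to day 6 tumors (SE 0.29, limma adjusted p = 0.00322) and -2.20 from day 6 tumors to hbHep (SE 0.32, limma adjusted p = 5.62e-05). At the low end hbHep differed from FAH liver by 0.23, with a 95% interval of -0.49 to 0.95 (limma adjusted p = 0.626). On the log2 distance from YAP1on tumors to FAH liver, Sox9 lay at 93.8% in hbHep and at 35.6% in day 6 tumors.

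Bicc1 (ENSMUSG00000014329, chromosome 10, 70922830 to 71159690) encodes an RNA-binding protein of ducts and tubules whose loss causes cysts. It was 2942, 4360, 3568 and 5236 in YAP1on tumors 1 to 4 and 1068, 1026, 1560 and 884 in day 6 tumors. It was 275, 513 and 343 in hbHep mice 1 to 3 and 77.1, 71.3 and 83.9 in FAH livers. No groups overlapped, so Bicc1 had 4 separate levels. The fall from YAP1on to day 6 tumors was -1.83 (SE 0.21, limma adjusted p = 1.41e-05), and that from day 6 tumors to hbHep was -1.60 (SE 0.23, limma adjusted p = 5.36e-05). Bicc1 in hbHep was 4.67-fold above FAH liver (2.22 on the log2 scale, SE 0.25, limma adjusted p = 6.04e-06), at 60.7% of the log2 distance from YAP1on tumors to FAH liver.

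Spp1 (ENSMUSG00000029304, chromosome 5, 104435111 to 104441053) encodes osteopontin, a secreted phosphoprotein made by duct cells and also by activated macrophages. It was the most abundant of the 9 genes in every sample except hbHep mouse 2, where Prom1 was higher. In YAP1on tumors 1 to 4 it was 32870, 33520, 27500 and 35980, and in day 6 tumors it was 2608, 2640, 6535 and 2193. In hbHep mice it was 1259, 816 and 938, and in FAH livers it was 608, 509 and 553. Again no groups overlapped, and day 6 tumor 3 stood well above the other day 6 tumors. Spp1 fell 10.2-fold at day 6 (-3.36 on the log2 scale, SE 0.26, limma adjusted p = 3.09e-07), and hbHep was 3.19-fold below day 6 tumors (limma adjusted p = 0.000208). The difference between hbHep and FAH liver was small, 1.78-fold (SE 0.30 on the log2 scale, limma adjusted p = 0.0403), and was lost without hbHep mouse 1 (adjusted p = 0.144), without hbHep mouse 3 (adjusted p = 0.0686) and without any 1 FAH liver (adjusted p from 0.066 to 0.0983). A list of 9 macrophage markers, which holds Csf1r and Clec4f, had a summed level of 20520 to 31560 in YAP1on tumors. That sum was 12740 to 16760 at day 6, 8920 to 23880 across hbHep mice and 3801 to 6809 in FAH liver. None had a group mean of 0. Of these 9 markers, 2 fell and 0 rose at day 6, 9 were higher in YAP1on tumors than in FAH liver, and 7 were higher in hbHep than in FAH liver; their part in the Spp1 values was not tested.

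Both duct keratins were low throughout. Krt7 (ENSMUSG00000023039, chromosome 15, 101412403 to 101427806), a type II keratin of duct epithelium, was 76.1, 54.9, 46.7 and 78.0 in YAP1on tumors 1 to 4 and 24.0, 12.3, 27.4 and 10.3 in day 6 tumors. In hbHep it was 6.03, 6.88 and 12.2, and in FAH liver 10.7, 21.4 and 5.64. YAP1on tumors stood alone at the top, while the 3 other groups overlapped. Krt7 fell 3.51-fold at day 6 (-1.81 on the log2 scale, SE 0.40, limma adjusted p = 0.00326) and differed by -0.41 between hbHep and FAH liver, with an interval of -1.39 to 0.56 (limma adjusted p = 0.515). From day 6 tumors to hbHep the change was -1.0 (limma adjusted p = 0.0668), which passed without day 6 tumor 4 (adjusted p = 0.0377) or hbHep mouse 3 (adjusted p = 0.0437). Day 6 tumors differed from FAH liver by 0.59 (limma adjusted p = 0.242), and without FAH liver 2 by 1.04 (adjusted p = 0.0469).

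Krt19 (ENSMUSG00000020911, chromosome 11, 100140810 to 100145926), a small type I keratin used as a duct marker in histology, was 38.4, 20.1, 41.3 and 66.6 in YAP1on tumors 1 to 4. It was 20.9, 22.8, 26.1 and 14.2 in day 6 tumors, 47.0, 22.4 and 38.9 in hbHep, and 17.6, 17.4 and 10.6 in FAH liver. YAP1on tumor 2 lay below 3 of the 4 day 6 tumors, so these groups overlapped, whereas hbHep lay wholly above FAH liver. The change at day 6 was -0.87 (SE 0.34, limma adjusted p = 0.0823), and without YAP1on tumor 2 it was -1.17 and passed the threshold (adjusted p = 0.0195). hbHep was 2.24-fold above FAH liver (limma adjusted p = 0.0315), a call lost without hbHep mouse 1 (adjusted p = 0.116), hbHep mouse 3 (adjusted p = 0.0861) or FAH liver 3 (adjusted p = 0.108). Against YAP1on tumors hbHep differed by -0.15, with an interval of -0.94 to 0.65. Krt7 and Krt19 thus differed in hbHep: Krt7 lay within the range of FAH liver and Krt19 within the range of YAP1on tumors, though that contrast between the genes was not tested.

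Epcam (ENSMUSG00000045394, chromosome 17, 87635979 to 87651127) encodes an adhesion molecule of epithelia that adult hepatocytes largely lack. It was 165, 97.4, 110 and 201 in YAP1on tumors 1 to 4 and 41.9, 51.8, 88.0 and 31.6 in day 6 tumors. In hbHep it was 25.9, 21.8 and 24.7, and in FAH liver 10.4, 17.9 and 12.4. All 4 groups were separate. Epcam fell 2.74-fold at day 6 (-1.45 on the log2 scale, SE 0.30, limma adjusted p = 0.00239) and 2.02-fold from day 6 tumors to hbHep (limma adjusted p = 0.0199). The second fall did not hold when day 6 tumor 3 (adjusted p = 0.0646) or hbHep mouse 2 (adjusted p = 0.0575) was left out. Although every hbHep mouse lay above every FAH liver, that difference of 0.82 did not pass (SE 0.35, limma adjusted p = 0.0810).

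Cd24a (ENSMUSG00000047139, chromosome 10, 43579169 to 43584265) encodes a small surface glycoprotein of progenitors, found on B cells and neutrophils too. It was 347, 218, 293 and 375 in YAP1on tumors 1 to 4 and 146, 186, 218 and 165 in day 6 tumors. In hbHep it was 76.8, 120 and 68.6, and in FAH liver 22.5, 19.6 and 13.3. The tumor groups touched, with YAP1on tumor 2 and day 6 tumor 3 almost equal, and the other groups were separate. The change at day 6 was the smallest that passed, 1.70-fold lower (-0.77 on the log2 scale, SE 0.23, limma adjusted p = 0.0213), and it did not hold with certain tumors left out, the adjusted p being 0.0723 for day 6 tumor 1, 0.0553 for day 6 tumor 4, 0.0638 for YAP1on tumor 1 and 0.0661 for YAP1on tumor 4. Cd24a in hbHep was 4.56-fold above FAH liver (2.19 on the log2 scale, SE 0.26, limma adjusted p = 1.26e-05). The sum of 4 B cell markers was 118 to 245 in YAP1on tumors, 198 to 387 at day 6, 85.8 to 121 across hbHep mice and 51.9 to 98.2 in FAH liver. That of 6 neutrophil markers was 654 to 2029, 721 to 1965, 161 to 300.1 and 92.2 to 97.2 in the same order. Their part in the Cd24a values was not tested.

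Cldn4 (ENSMUSG00000047501, chromosome 5, 134945123 to 134946934) encodes a claudin that seals tight junctions. It was 26.5, 25.9, 31.5 and 57.9 in YAP1on tumors 1 to 4, 12.4, 10.5, 25.4 and 9.10 in day 6 tumors, and 6.77, 4.35 and 1.51 in FAH livers. In hbHep it was 32.6, 255 and 11.4, so mouse 2 alone carried the highest value of any sample while mouse 3 lay among the day 6 tumors. Both technical libraries of mouse 2 were high, at 177 and 334, and those of mouse 3 were 11.3 and 11.5. The day 6 tumors lay wholly below the YAP1on tumors, yet the change of -1.28 did not pass (SE 0.69, limma adjusted p = 0.209), whereas in a fit of the tumor groups alone it did (adjusted p = 0.0234). Against FAH liver the day 6 tumors were 1.60 higher (limma adjusted p = 0.0735), and 0.018 was the adjusted p in a fit of these groups alone. hbHep was 10.1-fold above FAH liver (3.33 on the log2 scale, SE 0.80, limma adjusted p = 0.00411), a call that a fit of these groups alone did not make (adjusted p = 0.0553). Without hbHep mouse 2 the value was 2.12 (adjusted p = 0.0109). hbHep was 1.74 above day 6 tumors (limma adjusted p = 0.0682), and without hbHep mouse 3 that difference was 2.71 and passed (adjusted p = 0.00585), while without hbHep mouse 2 it was 0.52 (adjusted p = 0.466).

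Prom1 (ENSMUSG00000029086, chromosome 5, 43993621 to 44102047), also known as CD133, encodes a membrane protein of cell protrusions used to isolate progenitor cells. It was 728, 883, 1030 and 1079 in YAP1on tumors 1 to 4 and 1226, 1220, 863 and 1019 in day 6 tumors. In hbHep mice it was 608, 994 and 728, and in FAH livers 34.1, 114 and 93.6. Only FAH liver stood apart. Prom1 differed by 0.22 between day 6 and YAP1on tumors, with an interval of -0.39 to 0.83 (limma adjusted p = 0.647), and by -0.27 between hbHep and YAP1on tumors, with an interval of -0.93 to 0.39 (limma adjusted p = 0.473). hbHep was 10.5-fold above FAH liver (3.39 on the log2 scale, SE 0.33, limma adjusted p = 2.07e-06). The technical libraries of hbHep mouse 3 gave 1215 and 241, which differ 5.04-fold, against 1.13-fold and 1.35-fold in mice 1 and 2. With either library set alone Prom1 in hbHep was above FAH liver, at 3.73 (limma adjusted p = 1.19e-06) and 2.75 (limma adjusted p = 0.000132). Against day 6 tumors hbHep was at -0.49 (limma adjusted p = 0.208), and at -1.13 with the second libraries alone (adjusted p = 0.0271).

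**Figure D2:**
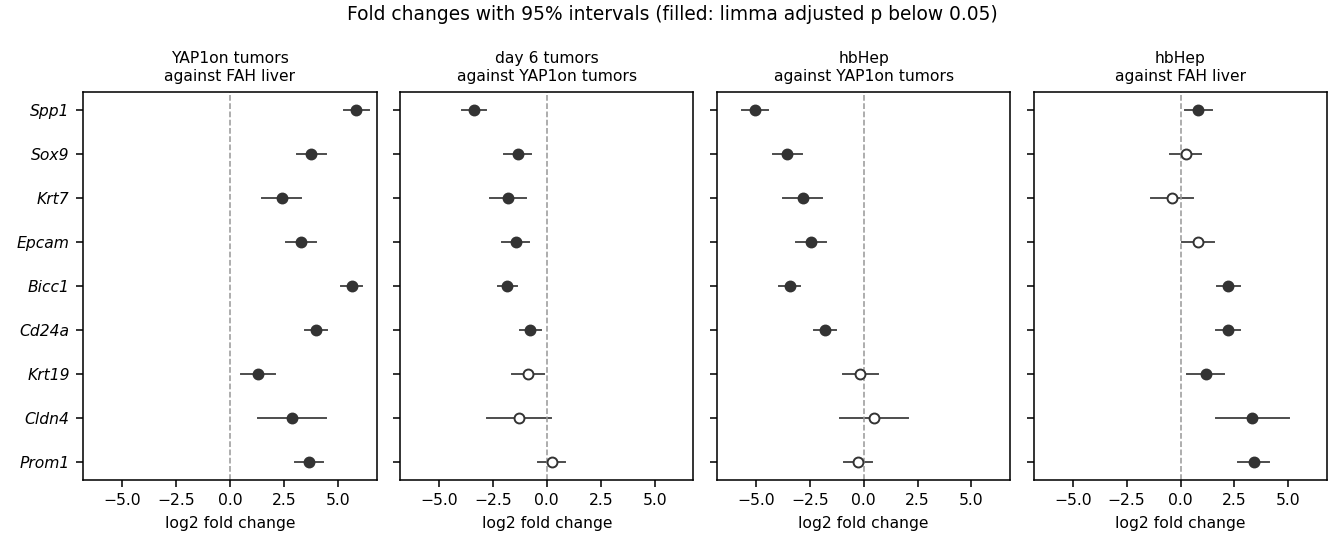
Log2 fold change (x axis) of each gene in 4 comparisons, with points for limma estimates, bars for 95% intervals and filled points for adjusted p below 0.05. Spp1, Sox9, Krt7, Epcam, Bicc1 and Cd24a lie left of 0 in both comparisons with YAP1on tumors, and Prom1 lies near 0 in both but at 3.39 in hbHep against FAH liver.

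Each gene was placed on the log2 distance from YAP1on tumors to FAH liver. The percentages have no intervals, and differences between genes were not tested. The groups are of different mice, so the percentages do not follow the same cells over time. The share of host cells in the hbHep livers is not given by the labels. In day 6 tumors Krt7 lay at 75.5% of its distance, Krt19 at 66.2%, Spp1 at 57.3%, Cldn4 at 44.5%, Epcam at 44.3%, Sox9 at 35.6%, Bicc1 at 32.3%, Cd24a at 19.3% and Prom1 at -6.0%. The value for Krt19 and that for Cldn4 rest on changes that did not pass the test. In hbHep the shares were 117.2% for Krt7, 93.8% for Sox9, 85.8% for Spp1, 75.1% for Epcam, 60.7% for Bicc1, 45.2% for Cd24a, 11.1% for Krt19, 7.5% for Prom1 and -16.0% for Cldn4. The last 3 rest on changes from YAP1on tumors that did not pass (limma adjusted p = 0.756, 0.473 and 0.62), and that of Cldn4 was 0.46 on the log2 scale but -0.76 without hbHep mouse 2. That of Prom1 was -0.27, but 0.07 with the first hbHep libraries alone and -0.91 with the technical replicate libraries alone (limma adjusted p = 0.0589). Sox9 and Krt7 in hbHep overlapped FAH liver, while Prom1, Cldn4 and Krt19 overlapped the tumors with YAP1 on.

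The tumors of 1 mouse also differed among themselves. YAP1on tumor 4 was the highest of its group for 9 of 9 genes, against 26.2% of all genes tested, and it had the most Yap1. Day 6 tumor 3 was the highest of its group for 8 of 9, against 23.4% of all genes, and the lowest for Prom1. Yap1 in that tumor was 1166, inside the range of the other day 6 tumors. In YAP1on tumors the order of Yap1 from tumor 1 through 3 and 2 to 4 was also the order of Sox9 and of Bicc1, a likeness over 4 tumors that was chosen after the values were seen and has no test. None of the other marker genes followed that order. YAP1on tumor 2, with Yap1 at 9790, was the lowest of its group for 4 of the 9 genes. Of the sums of other cell types, YAP1on tumor 4 had the highest of its group for stellate cells and fibroblasts (7868) and the lowest for T and NK cells (178), mesothelium (176) and red blood cell precursors (2260). Day 6 tumor 3 had the highest for T and NK cells (522) and the lowest for hepatocytes (523500), endothelium (4480), neutrophils (721), B cells (198) and red blood cell precursors (3571). The macrophage sum was 21220 in YAP1on tumor 4 and 15440 in day 6 tumor 3, within the range of the other tumors. The part of these cells in the order of the tumors was not tested.

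Other genes of the duct and progenitor programme were read from lists. Counts of all lists are to be read beside these shares of all genes tested. At day 6, 10.9% fell and 12.8% rose. In hbHep against YAP1on tumors 26.5% fell and 28.7% rose, and against FAH liver 20.0% were higher and 17.0% lower. In YAP1on tumors against FAH liver 34.6% were higher and 33.3% lower. Some list counts lie near these shares: in hbHep against FAH liver, 3 of 10 duct transport and cilia genes were higher and 2 lower. Of 11 regulators of duct transcription, 5 fell and 0 rose at day 6, with a median log2 fold change of -0.55 against 0.02 over all genes. They included Klf5, a Krüppel-like factor (-2.32), Glis3, whose loss causes cystic ducts (-1.53), and Sox4, a SOX factor of duct development (-1.08). In hbHep against YAP1on tumors 8 fell and 0 rose, and in hbHep against FAH liver 5 were higher and 1 lower. Sox4 was at 2.38, Elf3, an epithelial ETS factor, at 1.78 and Glis3 at 1.45, while Onecut1, a regulator of both liver lineages, was at -2.11. Without hbHep mouse 2 Onecut1 was at -1.24 (limma adjusted p = 0.000198), and the call of Glis3 did not hold without hbHep mouse 2 (adjusted p = 0.0822) or FAH liver 2 (adjusted p = 0.0733). In YAP1on tumors against FAH liver 10 were higher and 0 lower, Elf3 at 4.53 and Klf5 at 4.21 among them.

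Of 12 duct transport and cilia genes 10 were tested. At day 6, 4 fell and 0 rose (median -0.61), led by Dcdc2a (-1.66), Pkhd1, the gene of recessive polycystic disease (-1.30), and Pkd2 (-1.12). In hbHep against YAP1on tumors 5 fell and 1 rose, the enzyme gene Ggt1 at 5.37; against FAH liver 3 were higher and 2 lower, with Ggt1 at 2.27 and the bile acid transporter Slc10a2 at -2.89. YAP1on tumors against FAH liver had 6 higher, Anks6 first at 3.62, and 3 lower, Ggt1 first at -3.10. Without hbHep mouse 2 the differences of hbHep from FAH liver were 1.39 for Ggt1 (limma adjusted p = 0.0447) and -1.66 for Slc10a2 (limma adjusted p = 3.38e-05). The calls of Slc5a1 and Cftr (higher) and Aqp1 (lower) in that comparison were less stable. Slc5a1 did not pass without FAH liver 1 or 2 or hbHep mouse 1 or 3 (limma adjusted p from 0.0561 to 0.152). Cftr did not pass without FAH liver 1 or hbHep mouse 2 or 3 (limma adjusted p from 0.0506 to 0.0821). Aqp1 did not pass without hbHep mouse 3 (limma adjusted p = 0.0523).

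Of 10 other epithelial junction and surface genes 9 were tested, and 3 fell and 0 rose at day 6: Cldn6 (-1.94), the integrin Itgb4 (-1.79) and Cldn7 (-0.95). The call of Cldn7 did not hold without tumor 1, 2 or 4 of either group (limma adjusted p from 0.0825 to 0.143). In hbHep against YAP1on tumors 5 fell, with Cldn7 at -3.08, and Spint2 rose by 0.35, though not past the threshold without YAP1on tumor 1, 2 or 3 or hbHep mouse 3 (limma adjusted p from 0.0531 to 0.277; 0.19 without that mouse). Against FAH liver 1 was higher in hbHep, Tspan8 at 1.30, and 0 were lower. Tspan8 did not pass without FAH liver 1 or 3 or hbHep mouse 3 (limma adjusted p from 0.0537 to 0.11), and was at 0.83 without that mouse. YAP1on tumors against FAH liver had 6 higher, Cldn7 at 3.59, and 0 lower. Of 5 other simple epithelial keratins 3 were higher in hbHep than in FAH liver, Krt20 at 3.21, Krt8 at 0.99 and Krt18 at 0.68. At day 6, 2 of these keratins fell, Krt20 at -2.0 and Krt23 at -1.45, and Krt20 did not pass without day 6 tumor 2 or 4 or YAP1on tumor 4 (limma adjusted p from 0.0509 to 0.0876). In YAP1on tumors against FAH liver Krt20 was higher, at 1.69, and Krt23 lower, at -2.01. That call of Krt20 did not hold without FAH liver 1 or 3 or YAP1on tumor 4 (limma adjusted p from 0.0633 to 0.178), and the value was 1.08 without FAH liver 3. In hbHep against YAP1on tumors Krt23 (1.45) and Krt8 (1.03) rose and Krt80 (-0.95) fell, the last not past the threshold without YAP1on tumor 1, 2 or 4 or any 1 hbHep mouse (limma adjusted p from 0.0558 to 0.118). Krt8 and Krt18 are also the keratins of hepatocytes.

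Of 8 other progenitor genes 7 were tested. At day 6 the Wnt-related receptors Lgr5 (1.28) and Lgr4 (0.74) rose, and the integrin Itgb8 (-1.76), the TWEAK receptor Tnfrsf12a (-1.13) and the hyaluronan receptor Cd44 (-0.59) fell. Cd44 did not pass without day 6 tumor 1 or 4 or YAP1on tumor 3 or 4 (limma adjusted p from 0.0685 to 0.0836). In hbHep against FAH liver 5 were higher and 1 lower, Dlk1, a fetal hepatoblast antigen, first at 3.88, then Cd44 at 3.41 and Lgr5 at 3.12, with Lgr4 at -1.17. Against YAP1on tumors 3 rose, Dlk1 first at 4.32, and 3 fell, Itgb8 first at -3.34. YAP1on tumors had 4 higher than FAH liver, Itgb8 first at 4.73, and 1 lower, Lgr4 at -2.03.

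Markers of other cells were summed because several of the 9 genes are expressed outside ducts. Of the 10 hepatocyte markers 8 rose and 0 fell at day 6, 6 rose in hbHep against YAP1on tumors, 5 were lower in hbHep than in FAH liver, and 9 were lower in YAP1on tumors than in FAH liver. The sum of 5 mesothelial markers, of a cell layer that shares keratins with ducts, was 176 to 292 in YAP1on tumors, 177 to 262 at day 6, 156 to 259 across hbHep mice and 127 to 289 in FAH liver, so all groups overlapped. Of 8 stellate cell and fibroblast markers 3 fell at day 6, from sums of 4499 to 7868 to sums of 4928 to 7844; other sums were 3190 to 4740 across hbHep mice and 3037 to 4345 in FAH liver. Of 6 T and NK cell markers 4 were tested, 2 rose at day 6, and the sums were 178 to 244 in YAP1on tumors, 309 to 522 at day 6, 152 to 220 across hbHep mice and 54.3 to 77.5 in FAH liver. Of 6 endothelial markers 1 rose at day 6, with sums of 4071 to 5178, 4480 to 6918, 3077 to 6232 and 6298 to 6535 in the same order. Of 5 markers of red blood cell precursors 1 rose at day 6, with sums of 2260 to 5575, 3571 to 8814, 971 to 1784 and 2012 to 3028. Of the 4 B cell markers 1 rose at day 6. No marker in these lists had a group mean of 0, and their part in the results for the 9 genes was not tested.

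Patterns closest to each gene were ranked by the root mean square difference of centred log2 values over the 14 samples. Nearest were Ank2 for Sox9 (0.35), S100a11 for Bicc1 (0.30), Mrgprb9-ps for Spp1 (0.39), Ddah2 for Krt7 (0.48) and Kif7 for Krt19 (0.35). For the surface genes they were Trabd2b for Epcam (0.33), Pdgfc for Cd24a (0.27), Trpv4 for Cldn4 (0.65) and Arhgef16 for Prom1 (0.43). Cldn7, a tight junction gene, was the third nearest of Sox9 (0.43), and Cryab the third nearest of Spp1 (0.41). None of the 9 genes was among the 3 nearest of another. Cldn4 had the most distant neighbors.

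Open chromatin was read from the deposited intervals within 1000 bases of the gene start. An interval was present for 5 of the 5 genes with a known start in the Yap On library, 5 at day 14, 2 at day 33, 2 at day 64 and 3 in liver. Of 17492 protein-coding genes with a start, 65.5%, 66.4%, 64.7%, 65.8% and 65.6% had one in the same libraries. Spp1 had 21 intervals in Yap On and 10 at day 14, 0 at day 33, 0 at day 64, and 1 of 22 bases in liver. Krt7 had 7 and 4, then 0 in each of the other 3 libraries, and Cldn4 had 2 and 3, then 0 in each. An interval in both Yap On and day 14 with none at days 33 and 64 was found for 167 genes, 0.955% of all, and Spp1, Krt7 and Cldn4 were 3 of them. With none in liver too, the figures were 112 genes and 0.640%, among them Krt7 and Cldn4. These patterns were defined from the intervals of the marker genes themselves, so the shares of all genes are no independent comparison. Each condition is 1 library, so these are descriptions of libraries and carry no test.

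Prom1 and Epcam had an interval in all 5 libraries, as did 60.8% of genes. Prom1, whose RNA stayed high in hbHep, had 15 intervals in Yap On, 15 at day 14, 9 at day 33, 8 at day 64 and 6 in liver, covering 340, 1201, 840, 773 and 317 bases. Epcam had 7, 5, 2, 2 and 1, all of them downstream of the start. The Yap On list was made of narrower pieces than the rest, with a median width of 21 bases against 61 to 71 and a longest interval of 162 bases against 799 to 800, so counts and covered bases of that library are not compared with those of the other 4. From day 14 to days 33 and 64 the lists are alike in form, with 1023760, 780497 and 769500 intervals. The liver list was the smallest, at 571520, and the day 14 list the largest. Interval counts and absences were not corrected for the size of the lists.

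**Figure D3:**
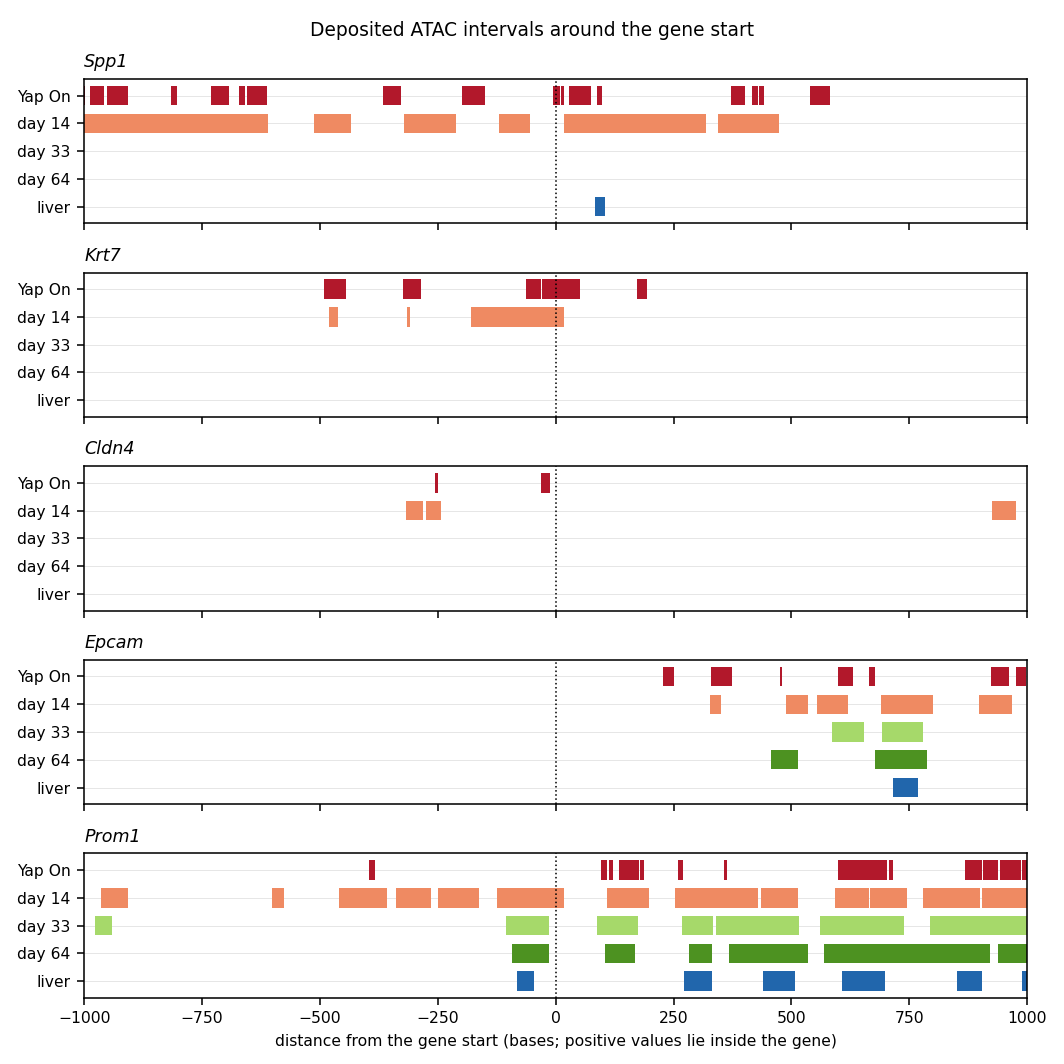
Deposited ATAC intervals (bars) in each of 5 libraries against distance from the gene start in bases, for the 5 genes with a start in the promoter table. Spp1, Krt7 and Cldn4 have bars in the Yap On and day 14 libraries and none at days 33 and 64, whereas Prom1 and Epcam have bars in all 5.

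Over the whole gene with 5000 bases on both sides, all 9 genes could be read. Bicc1 had 226 intervals at day 14, 68 at day 33, 36 at day 64 and 16 in liver, which covered 58.3, 19.7, 10.5 and 3.84 bases per kb. The median of 21887 protein-coding genes was 39.2, 32.6, 31.7 and 22.0 bases per kb in the same libraries, so Bicc1 went from above the median to below it. Spp1 went the same way, with 122, 9.53, 0.439 and 4.64 bases per kb. Sox9 lay above the median in each library, liver included, with 131, 90.0, 71.3 and 78.0. Its RNA in hbHep overlapped that of FAH liver. The Cldn4 window also lay above the median in each library, with 169, 102, 110 and 37.1, though it had no interval within 1000 bases of the start at days 33 and 64. Most of that window of 11.8 kb is flank, as the gene spans only 134945123 to 134946934. With 1202 bases covered at day 33 and 1299 at day 64, part of the covered bases lay outside the gene. Cd24a had 106, 41.7, 20.5 and 19.8.

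Prom1 stayed close to the median throughout, with 48.7, 40.1, 36.9 and 23.9 bases per kb. Epcam lay below it, with 18.3, 7.40, 9.26 and 3.78. Krt7 had 14.6 at day 14 and 0 in the later libraries and liver. Krt19 had no interval in any of the 5 libraries, Yap On included, as was so for 14.5% of protein-coding genes. The RNA and ATAC samples are of different days after YAP1 was switched off, so no value of one is set against the other by test.

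**Figure D4:**
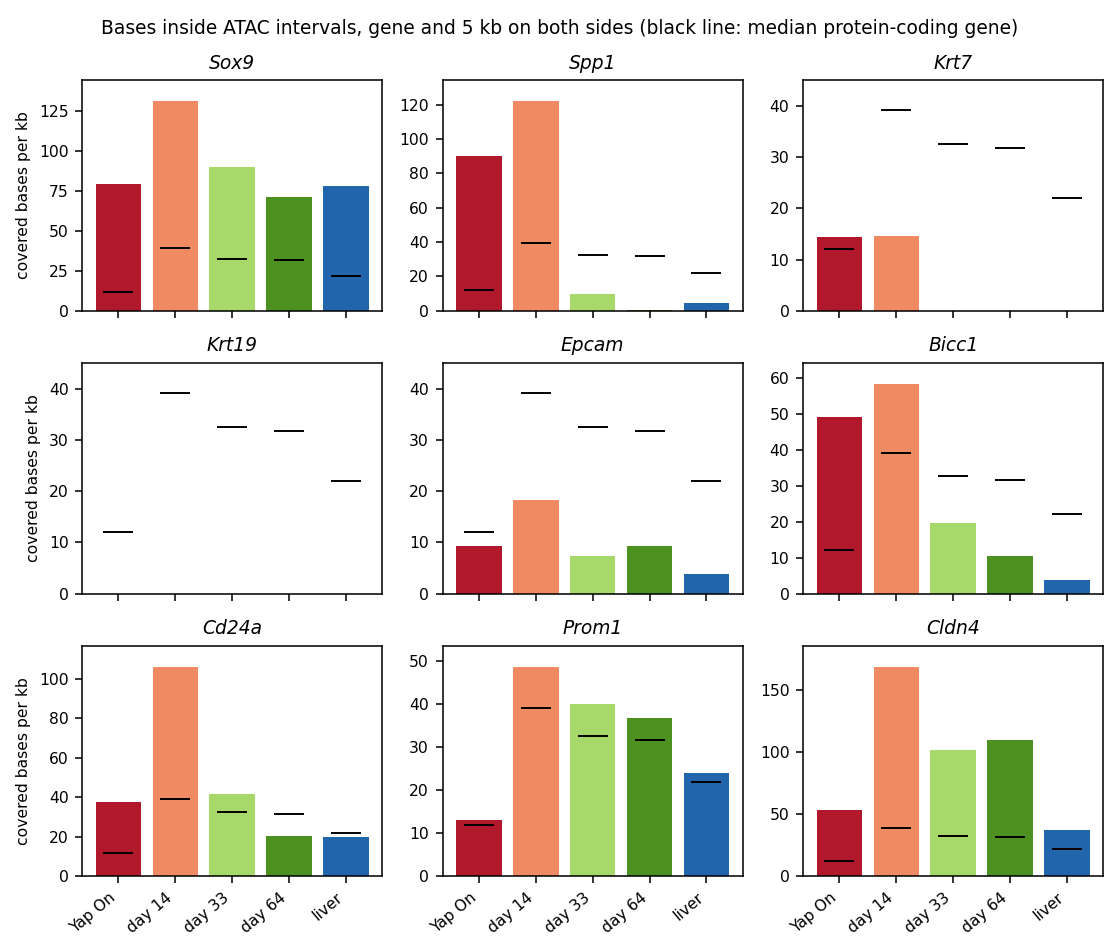
Bases inside ATAC intervals per kb of each gene with 5 kb on both sides (bars, y axes differ between panels) in 5 libraries, with a black line for the median of protein-coding genes. Bicc1 and Spp1 fall from above the median at day 14 to below it at days 33 and 64. The windows of Sox9 and Cldn4, flanks included, stay above it, and Krt19 has no bars.

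The motifs of 3 factor families were searched on both strands in the 300 bases from 250 before to 50 after each start. CATTCC, the core read by TEAD factors that carry YAP1 to DNA, was in 0 of 5 genes and in 13.5% of all 17492 promoters. TGGGAA, the core of the Notch effector RBPJ, was found in Prom1 at -116 and in 24.5% of promoters. The Prom1 start used here, 44101736 on the minus strand, lies inside the annotated gene, which reaches 44102047. That match is therefore also inside the annotated gene. ACAAAG, a core of SOX factors, was found in Spp1 at -168 and in Cldn4 at -123, both on the other strand, where the printed sequences read ctttgt, and in 16.8% of promoters. In Spp1 the match lies in lower case, between stretches inside day 14 intervals. In the Yap On library intervals lay there from -198 to -166 and from -164 to -151, over most of the match. These matches are letters in a window and not measured binding.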

How the data were processed

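RNA was measured in 17 libraries (14 samples) and open chromatin in 5. The authors deposited the RNA as a signal per gene, read here as scaled reads per base from the table's name, and per the submitters' processing notes it came from kallisto 0.45.0, which used GRCm38.p6, with bcl2fastq before it and sleuth as the other tool named. kallisto divides reads between similar transcripts by estimation. ATAC intervals on mm10 were deposited by the authors as lists of another kind of value, positions with a column of no stated meaning that was not used. Per the submitters' processing notes the tools were BWA, Picard, SAMtools, cutadapt and bcl2fastq. The rule that made the intervals is not given in the sources used here. Only 12.4 to 15.8% of low values were whole multiples of the smallest step (tolerance 0.02), so whole reads were not recovered, no count model was used and the depth in reads is unknown. The signal summed to 16.0 to 42.1 M per library (M for the prefix mega).

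Factors by median of ratios over the 17 libraries (0.9585 to 1.095) rescaled the values, after which both technical libraries of an hbHep mouse were averaged. Of 36555 genes, 35912 had a symbol. Genes with abundance of at least 10 in at least 3 samples were tested, 17958 in all. limma 3.58.1 in R 4.3.3 (eBayes with a trend) was fitted on log2(abundance + 1) to the 4 groups without covariates, after it was tested on simulated data. Intervals of differences are 95% intervals. Promoter windows reached 1000 bases on both sides of the start, with an overlap of at least 1 base. The alternatives were another pseudocount, no filter, no rescaling, quantile normalization, a fit of 2 groups, a replicate block, each sample or technical set left out, and other windows, overlaps and widths for ATAC.

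The genes, the 14 other lists and the tests were chosen with earlier results of these data known. All 9 marker genes are named; from each other list of duct, junction, keratin and progenitor genes up to 3 genes past the threshold with the largest change in each direction could be named, and for each marker gene the 3 genes of nearest pattern. Yap1 was given as a check of the labels. Gene positions are RefSeq's on GRCm38.p6.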

Additional observations from a re-analysis of the deposited data

Results flagged for a closer look

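Spp1 in day 6 tumor 3 was 6535, while the other 3 day 6 tumors lay between 2193 and 2640. The gap to the nearest tumor was 0.897 of the range of the group. For the 9 genes 18 groups of 4 tumors were checked in this way, and chance alone marks about 1 in 20 such groups. The same tumor was also the highest of its group for Sox9, Bicc1, Krt7, Krt19, Epcam, Cd24a and Cldn4, and its macrophage markers summed to 15440, within the range of the other day 6 tumors. Its T and NK cell markers summed to 522, above the others (309 to 393), and its hepatocyte (523500) and endothelial (4480) sums were the lowest of the group; their part in the Spp1 value was not tested. Without it the log2 fold change of Spp1 at day 6 was -3.71 (limma adjusted p = 2.06e-09).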

How the results depend on the processing

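Over 54 fold changes (9 genes in 6 comparisons) and 756 alternative values, 715 kept their direction and their side of the threshold, 24 lost and 9 gained a call, and 8 changed sign, none of them called in the first place. The sign changes were Krt19 in hbHep against YAP1on tumors with quantile normalization (0.11), the replicate block (0.12), and leaving out samples (-0.44 without YAP1on replicate 2 to 0.16 without hbHep replicate 2, 0.12 without YAP1on replicate 4); Cldn4 there (-0.76 without hbHep replicate 2 to 1.43 without hbHep replicate 3); Prom1 there with first libraries only (0.07); Sox9 in hbHep against FAH liver with quantile normalization (-0.05); and Krt7 there (-0.84 without FAH liver replicate 3 to 0.04 without FAH liver replicate 2). Cldn4 in hbHep against FAH liver lost its call in a fit of those groups alone (limma adjusted p = 0.0553), and Krt19 in YAP1on tumors against FAH liver lost it with quantile normalization (0.0905). Spp1 and Krt19 in hbHep against FAH liver also lost theirs with no filter (0.0794 and 0.0615), quantile normalization (0.0562 and 0.112) and first libraries only (0.0564 and 0.111), and Krt19 in a fit of those groups alone (0.0688). Genes called in hbHep against FAH liver numbered 6646, and 4057 in a fit of those groups alone.

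The replicate number did not pair the samples: same-numbered deviations correlated at -0.23 to -0.03 between tumor groups and 0.019 to 0.188 between hbHep and FAH liver. With the replicate block 4108 genes were called in hbHep against FAH liver, Krt19 was no longer called there (adjusted p = 0.0901), and Cldn4 became called in day 6 tumors against FAH liver (0.0293).

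Of the 5 genes with a start, 4 had an interval at day 14, 1 at day 33 and 1 at day 64 in a window of 250 bases (63.6%, 62.1% and 62.4% of all genes). With an overlap of at least 100 bases 0 had one in Yap On, 4 at day 14, 1 at day 33, 2 at day 64 and 0 in liver (0.332%, 57.3%, 56.6%, 56.3% and 52.0% of all genes); the day 14 intervals of Cldn4, up to 51 bases wide, then no longer count. With intervals of at least 300 bases 0 had one in Yap On, 1 at day 14, 0 at day 33, 0 at day 64 and 0 in liver (0%, 3.41%, 3.36%, 3.09% and 1.77% of all genes); no interval in Yap On is that wide. RNA depth in reads is unknown, so no counting interval is given for the low genes Krt7, Krt19 and Cldn4.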
